A study of Mus musculus with 16 samples.

Results

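Active *Map2k1* in excitatory neurons was examined in the cortex of mice at postnatal day 21 (P21), in 6 arrays, 1 per mouse, of the 16 in the series. The 3 mutants (mice 1, 3 and 6) were *ca-Map2k1;Neurod6-Cre* animals, which carry a Cre-dependent transgene for constitutively active *Map2k1* together with Cre at the *Neurod6* locus. The other 3 mice (2, 4 and 5) are labelled as controls. The study in general used Cre-expressing or Cre-negative littermates as controls. Neither the Cre status of each P21 control nor the litter of any P21 mouse is given in the sources used here. *Neurod6-Cre* recombines in postmitotic excitatory neurons of the cortex, so interneurons, glia and vessels of the mutants should lack the active kinase. The strains were on a mixed background, and all 6 mice were male by *Xist* and 3 Y-linked genes. The other 10 arrays come from loss-of-function mice (*Map2k1/2;Neurod6-Cre*) at P14 (3 mutants, 3 controls) and P9 (2 mutants, 2 controls), on another array type. All members of the comparison were genes: a probe set counted when it was annotated with 1 symbol, the brightest probe set stood for its gene, and genes above the 30th percentile of mean brightness were kept, which gave 15526 of 22180 genes.

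*Map2k1* encodes the kinase MEK1, which phosphorylates and activates the ERK kinases. Active ERK drives transcription through ETS factors, serum response factor and CREB, and among the genes it switches on are its own inhibitors, the dual-specificity phosphatases (*Dusp*) and the *Spry* and *Spred* proteins. In cortical neurons the cascade links growth factor receptors and synaptic activity to immediate early genes such as *Arc*, *Fos* and *Egr1*. Overactive ERK signaling underlies a group of human developmental syndromes, the RASopathies. The comparison asks which transcripts differ in whole cortex when the cascade is driven from within excitatory neurons.

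The values are log2 intensities on which 1 unit is a doubling of signal. The median per array ran from 6.23 to 6.31, and any pair of arrays correlated at 0.989 to 0.994 across genes. On the first principal component (31.4% of the variance) the 3 mutants scored -9.4 to -8.1 and the 3 controls 5.2 to 12.5. Excitatory neuron markers were present: *Camk2a* had 12.37, 12.34 and 12.39 in the mutants and 12.46, 12.39 and 12.44 in the controls, and the vesicular glutamate transporter *Slc17a7* had 11.70 to 11.76 in the mutants and 11.65 to 11.82 in the controls. Markers of tissue around the cortex were also read, and brightness cannot be compared between probe sets, so the purity of the dissection was not tested. The striatal receptor *Drd1* ranged from 6.44 to 6.74 in the mutants and from 6.63 to 6.84 in the controls. *Ttr*, the defining gene of choroid plexus, varied within both groups, with 8.06 to 9.09 in the mutants and 8.10 to 9.13 in the controls. In whole tissue, fewer cells of a type and less RNA per cell cannot be told apart.

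No gene passed an adjusted p of 0.05 (limma, two-sided, Benjamini-Hochberg over all 15526 genes, 0% called). The lowest adjusted p was 0.0555, shared by 7 genes. The count was not stable around 0: 13 genes were called with a stricter brightness filter, 17 with trended and robust moderation, 11 without mutant 1 (all lower) and 7 without control 5. Before adjustment, 1730 genes (11.1%) had p below 0.05, where 776.3 are expected with no effect over both directions together. Of the 1730, 952 (6.13% of all genes) were higher and 778 (5.01%) lower in the mutants. The methods of the study call a gene with p below 0.05 before adjustment and a change beyond 1.5-fold, which held for 71 genes (0.457%), 26 higher (0.167%) and 45 lower (0.29%). In 2577 genes (16.6%) the mutants and controls did not overlap, with the mutants above in 8.98% and below in 7.62%. Differences were small: the median over all genes was 0.02, the 95th percentile of the size was 0.28 and the 99th was 0.46, with a median standard error of 0.08. The words higher and lower below describe means and not adjusted calls. Beside lists of genes, the counts at an unadjusted p below 0.05 are set against these shares of 6.13% and 5.01%.

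**Figure D1:**
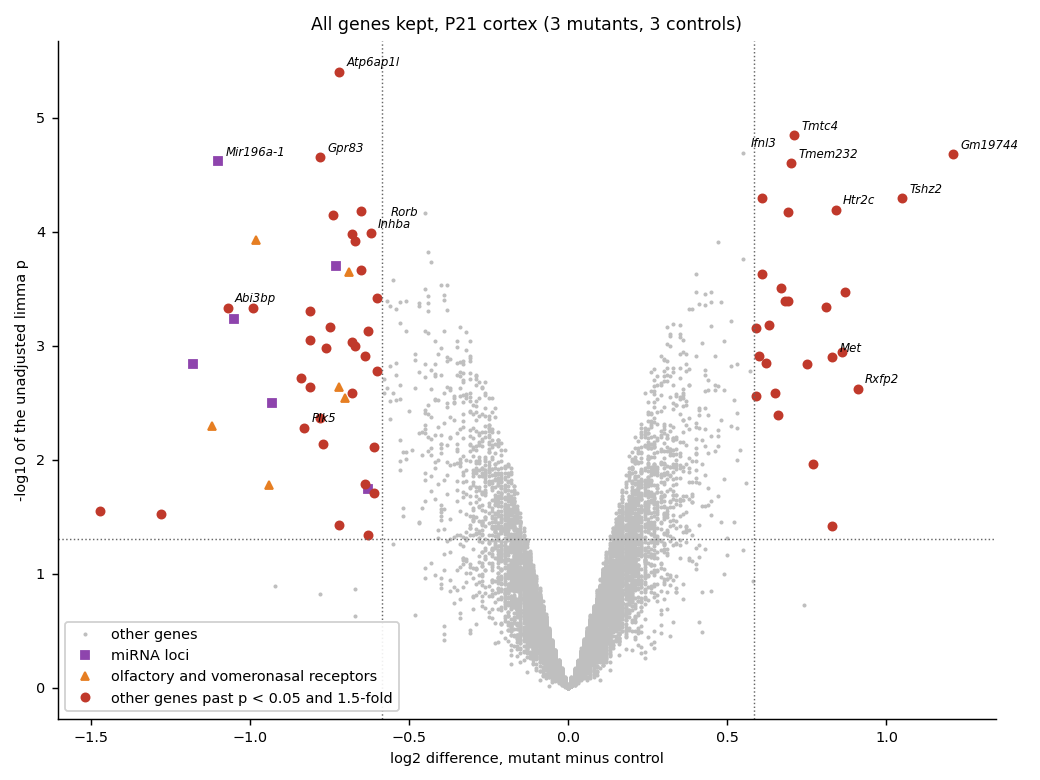
The log2 difference of each of the 15526 genes (mutant minus control, x axis) is plotted against -log10 of its unadjusted limma p (y axis); dotted lines mark the thresholds of the study. The 71 genes past both lines are coloured by class, and the 12 miRNA loci and olfactory or vomeronasal receptors among them all lie on the lower side, while *Tshz2*, *Htr2c* and *Tmtc4* lie on the higher side.

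*Map2k1* itself read higher in every mutant. Its log2 values were 10.33, 10.38 and 10.29 in the mutants, against 10.11, 10.08 and 10.12 in the controls. The groups did not overlap, and the difference was 0.23 (standard error 0.06, 95% confidence interval 0.09 to 0.36), with an adjusted p of 0.234. Whether this probe set reads the transgene is not given in the sources used here, so the value does not measure how strongly the transgene was expressed. *Map2k2*, which encodes the second MEK, had 8.19, 8.31 and 8.22 in the mutants and 8.33, 8.20 and 8.20 in the controls, a difference of 0.00 (adjusted p = 0.988). *Neurod6*, the transcription factor gene whose locus holds Cre, had 8.33, 8.52 and 8.35 in the mutants and 8.71, 8.75 and 8.46 in the controls. The groups overlapped, and the difference was -0.24 (adjusted p = 0.407), while in the loss-of-function mutants at P14 *Neurod6* fell by 3.07 (adjusted p = 0.00765). Of the other kinases and adaptors of the cascade, the Raf kinases *Braf* (-0.07) and *Araf* (0.07), the GTPase *Nras* (0.15) and the scaffolds *Ksr1* (0.06) and *Ksr2* (-0.12) all had adjusted p-values of 0.474 or more. The RSK kinase *Rps6ka3*, which ERK activates, had 9.34, 9.38 and 9.41 in the mutants, below 9.69, 9.55 and 9.62 in the controls (-0.25, adjusted p = 0.221).

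The genes that report ERK output stood close to control levels. All 25 feedback genes examined were kept, and 1 was higher and 1 lower at an unadjusted p below 0.05. Their median difference was 0.07, against 0.02 over all genes, with 19 of them above 0 and 6 below. *Dusp6*, the cytoplasmic ERK phosphatase whose transcript usually tracks ERK activity, had 10.64, 10.57 and 10.91 in the mutants and 10.52, 10.45 and 10.79 in the controls. The groups overlapped, and the difference was 0.12 (95% confidence interval -0.15 to 0.39, adjusted p = 0.761). *Spred2*, an inhibitor of Raf activation, differed by -0.10 (interval -0.27 to 0.07), *Etv5*, an ETS factor induced by ERK, by -0.01 (-0.23 to 0.21), and the immediate early phosphatase *Dusp1* by 0.05 (-0.35 to 0.44). The largest positive difference was that of *Spry4*, a Sprouty inhibitor, with 7.94, 8.16 and 8.32 in the mutants against 7.80, 7.67 and 8.08 in the controls (0.29, interval 0.00 to 0.58, adjusted p = 0.450). *Etv4* was the member past the unadjusted threshold on the higher side (0.16, adjusted p = 0.403) and *Ier3*, an immediate early survival gene, the one on the lower side (-0.27, adjusted p = 0.421). In the P14 loss-of-function cortex 7 of these 25 genes fell at an adjusted p under 0.05, against 139 of all 19938 genes (0.697%). Among the 7, *Dusp6* fell by 1.66, *Dusp1* by 1.53, *Spred2* by 1.34 and *Etv5* by 1.06. The 95% intervals at P21 did not reach the size of the P14 values for these 4 genes in either direction. The P14 values come from other mice, another age and another array type, and the difference between the experiments was not tested.

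Serum response factor, CREB and ETS factors bind known response elements in promoters. The 250 bases before the start of *Dusp5*, a nuclear ERK phosphatase, and of *Pcsk1*, a prohormone convertase, are shown because each carries a response element of this kind close to its start, while neither transcript differed here. They are RefSeq sequence of GRCm38.p6, from chr19:53528895-53529144 and chr13:75089607-75089856, both on the plus strand, with matches in capitals.
Dusp5: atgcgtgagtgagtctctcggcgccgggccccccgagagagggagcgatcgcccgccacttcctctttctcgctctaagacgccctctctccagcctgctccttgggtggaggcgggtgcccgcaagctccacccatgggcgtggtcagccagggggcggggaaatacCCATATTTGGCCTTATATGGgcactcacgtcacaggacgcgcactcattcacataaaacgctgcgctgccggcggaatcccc
Pcsk1: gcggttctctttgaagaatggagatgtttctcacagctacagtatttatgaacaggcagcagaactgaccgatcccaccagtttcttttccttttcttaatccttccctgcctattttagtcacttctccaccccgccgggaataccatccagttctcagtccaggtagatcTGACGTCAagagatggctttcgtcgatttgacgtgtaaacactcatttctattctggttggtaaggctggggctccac
The capitals in *Dusp5* are 2 adjoining matches to the CArG box, the core of the serum response element, and those in *Pcsk1* are the full cyclic AMP response element, TGACGTCA, which CREB binds. Both strands were searched. Of the 12042 genes kept with a promoter in the table, 1.18% held a CArG box and 2.42% a cyclic AMP response element in this window. Among the activity-regulated genes 4 of the 25 with a promoter (16%) held the latter element, none held a CArG box, and 1 (4%) held the ETS core CCGGAAG, against 11.5% of all genes. *Arc* and *Egr1* are not among these 25, so their promoters were not searched. Only the most upstream start of each gene was searched, so other starts and elements further than 250 bases away were left out. Of the 19 feedback genes with a promoter, 1 held a CArG box (*Dusp5*), 2 a cyclic AMP response element and none the ETS core. A match is a description of the letters and not a measured site. *Dusp5* had 8.36, 8.48 and 8.41 in the mutants and 8.42, 8.38 and 8.35 in the controls, a difference of 0.03 (interval -0.11 to 0.18). *Pcsk1* had 9.62, 9.38 and 9.54 in the mutants and 9.42, 9.71 and 9.82 in the controls (-0.13, interval -0.39 to 0.12), while it fell by 2.06 at P14 after loss of function (adjusted p = 0.00167).

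Activity-regulated genes were split. Of 37 listed, 35 were kept, and 2 were higher (5.71%) and 8 lower (22.9%) at an unadjusted p below 0.05, against 6.13% and 5.01% of all genes; the median difference was 0.00. The zinc finger factors *Egr1* and *Egr2*, the synaptic genes *Arc* and *Homer1*, and *Ptgs2* were among the lower ones. *Arc*, which removes glutamate receptors from synapses, had 10.83, 10.59 and 11.27 in the mutants and 11.44, 11.18 and 11.43 in the controls. Mutant 6 lay above control 4, and the difference was -0.45 (standard error 0.16, adjusted p = 0.358). *Egr1* had 9.67, 9.74 and 9.79 in the mutants, all below 10.11, 9.99 and 10.03 in the controls (-0.31, standard error 0.07, adjusted p = 0.170). *Homer1*, a scaffold of the postsynaptic density with an activity-induced short form, had 9.30, 9.28 and 9.56 in the mutants, all below 9.78, 9.68 and 9.76 in the controls (-0.36, adjusted p = 0.190). *Ptgs2*, the inducible cyclooxygenase, had 8.80, 8.53 and 9.06 in the mutants, all below 9.26, 9.46 and 9.47 in the controls (-0.60, adjusted p = 0.175). *Egr2* differed by -0.30, *Egr3* by -0.20 and *Gadd45b*, a DNA demethylation factor, by -0.22 (adjusted p of 0.300 or more for each).

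Other immediate early genes did not share that direction. *Fos* had 7.43, 7.34 and 7.74 in the mutants and 7.40, 7.41 and 7.64 in the controls, a difference of 0.02 (95% confidence interval -0.24 to 0.28). *Junb*, an AP-1 partner, was 0.25 higher and the stress factor *Atf3* 0.26 higher (adjusted p = 0.409 and 0.279). *Npas4*, an activity-dependent factor of neurons, spread most, with 8.72, 7.51 and 9.11 in the mutants and 7.71, 7.72 and 8.64 in the controls, so that its interval ran from -0.50 to 1.35. *Nr4a1*, an orphan nuclear receptor induced with *Fos*, differed by 0.13 (-0.30 to 0.56). Mutant 3 was the lowest mouse for *Npas4*, *Fos*, *Arc* and *Ptgs2*, and mutant 6 the highest of the mutants for all 4.

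**Figure D2:**
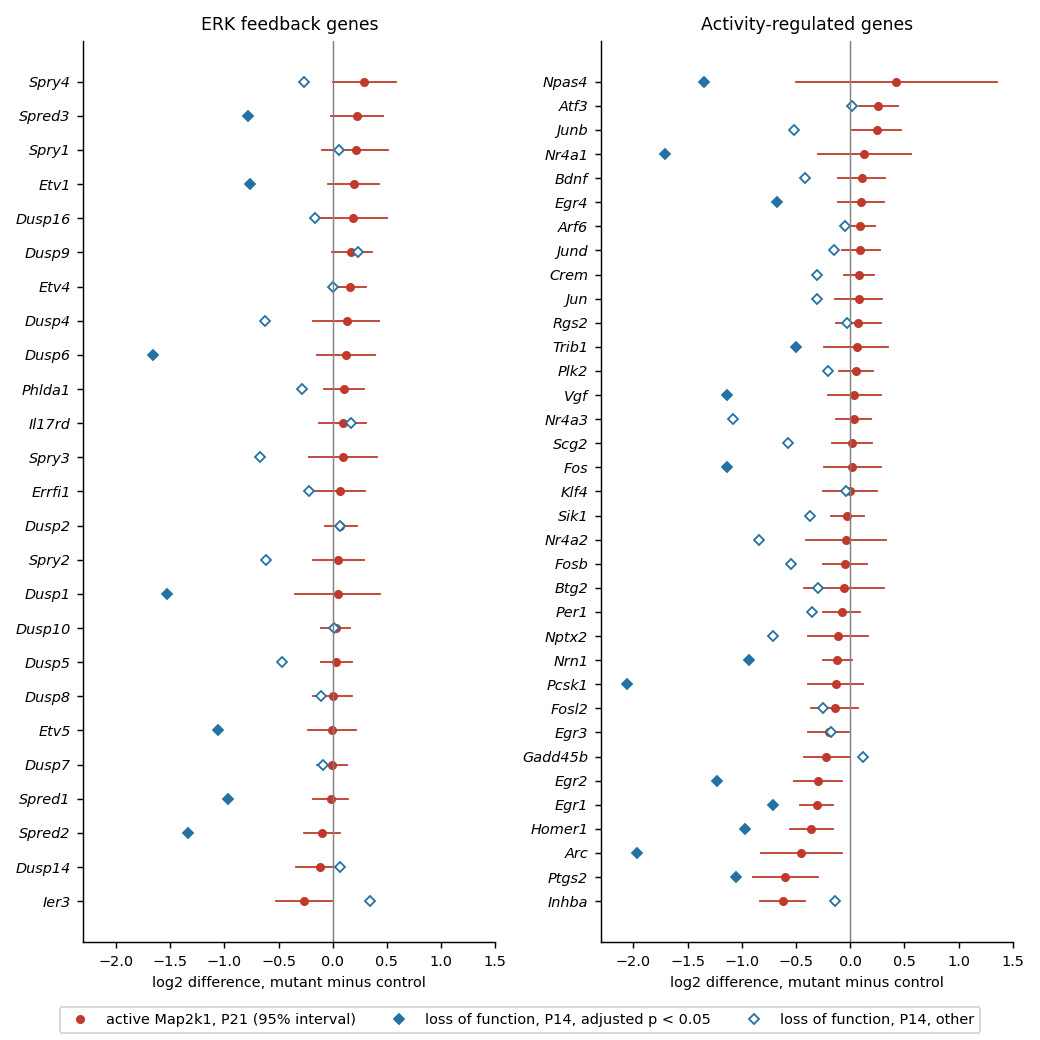
Log2 differences (mutant minus control, x axis) of the 25 ERK feedback genes (left) and 35 activity-regulated genes (right) at P21 are red points with 95% confidence intervals (3 mice a group); blue diamonds give the loss-of-function difference of the same gene at P14, filled at an adjusted p under 0.05. The feedback genes lie within 0.29 of 0 at P21, while 8 activity-regulated genes lie to the left of 0 with intervals up to or below 0.

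Genes of layer 5 and of the upper cortical layers leaned in opposite directions. Markers of layer 5, the layer of corticospinal and other long-range output neurons, were mostly higher, and markers of layer 4 and the upper layers mostly lower. Of 22 layer 5 genes in the study's own list, 8 were higher (36.4%) and 1 lower at an unadjusted p below 0.05, with a median of 0.15; of 19 further layer 5 genes, 7 were higher (36.8%) and 1 lower, with a median of 0.10. Of 20 upper-layer genes of the study, 3 were higher and 7 lower (35%), with a median of -0.12, and of 16 further upper-layer and layer 4 genes, 1 was higher and 5 lower (31.2%), with a median of -0.08. The study tabulated its layer genes for the loss-of-function arrays and not for these mice.

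*Tshz2*, a zinc finger factor of a group of layer 5 neurons, had the largest positive difference among protein-coding genes. Its values were 9.26, 9.56 and 9.14 in the mutants, against 8.48, 8.05 and 8.28 in the controls. The groups lay well apart, and the difference was 1.05 (standard error 0.14, adjusted p = 0.0786). The gene has 2 probe sets, and their mean gave 0.73. *Htr2c*, a serotonin receptor of deep-layer neurons, had 7.43, 7.35 and 7.10 in the mutants and 6.52, 6.26 and 6.59 in the controls (0.84, standard error 0.11, adjusted p = 0.0786). *Fezf2*, the factor that specifies corticospinal neurons, had 9.85, 9.83 and 9.47 in the mutants and 9.08, 9.02 and 9.46 in the controls. Mutant 6 and control 5 were nearly level for this gene, and the difference was 0.53 (standard error 0.14, adjusted p = 0.236). *Crym*, a thyroid hormone binding protein of corticospinal neurons, had 9.76, 9.50 and 9.11 in the mutants and 8.82, 9.03 and 9.16 in the controls, so that mutant 6 lay within the control range (0.45, adjusted p = 0.358).

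Further layer 5 genes had the same sign. The secreted Wnt modulator *Dkk3* was 0.37 higher, the LIM-domain binding factor *Ldb2* 0.33, the growth factor binding protein *Crim1* 0.30, the sulfotransferase *Chst8* 0.48 and the small-conductance potassium channel *Kcnn2* 0.29 (adjusted p of 0.175 to 0.300). *Bcl11b*, which encodes the corticospinal factor CTIP2, did not, with 9.40, 9.44 and 9.27 in the mutants, all below 9.53, 9.52 and 9.52 in the controls (-0.15, adjusted p = 0.454). *Nefh*, the heavy neurofilament of large projection neurons, had 8.18, 8.35 and 8.46 in the mutants, all below 8.85, 8.71 and 8.78 in the controls (-0.45, adjusted p = 0.149). *Scube1*, a secreted membrane-associated protein, was lower too (-0.53, adjusted p = 0.121). *Etv1*, an ETS factor and layer 5 marker, differed by 0.20 and *Adcyap1*, the precursor of the peptide PACAP, by 0.41, with overlapping groups for both.

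*Rorb*, the nuclear receptor that marks layer 4, had 9.26, 9.14 and 9.26 in the mutants, against 9.93, 9.81 and 9.67 in the controls. The groups did not overlap, and the difference was -0.58 (standard error 0.08, adjusted p = 0.0844). *Scnn1a*, a sodium channel subunit used to target layer 4, had 6.89, 6.91 and 6.88 in the mutants and 7.74, 7.38 and 7.24 in the controls (-0.56, adjusted p = 0.175). *Unc5d*, a netrin receptor of upper-layer neurons, had 9.02, 9.04 and 8.94 in the mutants and 9.75, 9.37 and 9.21 in the controls (-0.44, adjusted p = 0.263). The mutants were close to each other for both genes, and control 2 was the brightest array. *Inhba*, which encodes the activin A subunit and is also an activity-regulated gene, had 6.51, 6.74 and 6.51 in the mutants and 7.24, 7.30 and 7.09 in the controls (-0.62, standard error 0.09, adjusted p = 0.0955). The Wnt agonist *Rspo1* (-0.35), the upper-layer factor *Cux1* (-0.28) and the netrin *Ntn4* (-0.31) were lower without overlap (adjusted p = 0.165, 0.257 and 0.209), whereas *Cux2* differed by -0.13 (adjusted p = 0.622).

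Some upper-layer genes were higher: *Epha3*, an ephrin receptor, by 0.28, *Cpne4*, a copine, by 0.22, *Mdga1*, a neuronal adhesion molecule, by 0.25, and, with the largest difference of them, *Tmtc4*, which encodes an O-mannosyltransferase of the endoplasmic reticulum. *Tmtc4* had 8.95, 8.87 and 8.86 in the mutants, against 8.10, 8.13 and 8.33 in the controls. The difference of 0.71 (standard error 0.08) had the lowest adjusted p, 0.0555. Layer 6 and subplate genes had no common sign: of 22 kept in the longer list 4 were higher and 3 lower, with a median of -0.02. *Zfpm2*, a GATA cofactor of layer 6 neurons, was 0.29 higher (adjusted p = 0.184) and *Sulf1*, a heparan sulfatase, 0.53 lower (adjusted p = 0.147).

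**Figure D3:**
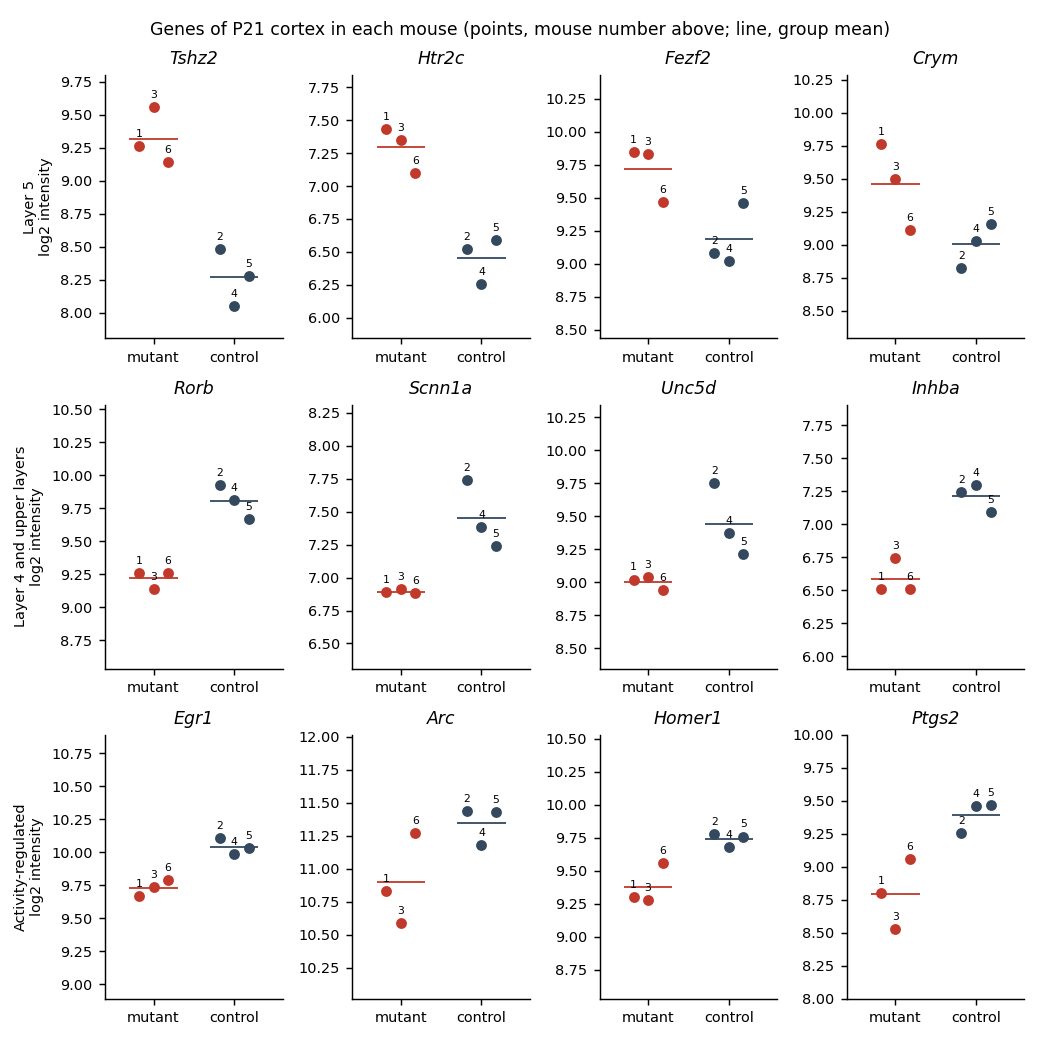
Log2 intensity (y axis, the same span of 2 units in each panel) of 12 genes in each P21 mouse, with 3 mutants on the left and 3 controls on the right of each panel. Numbers name the mouse and lines give group means. *Tshz2*, *Htr2c* and *Rorb* separate the groups by more than the spread within either, while *Crym* and *Arc* overlap.

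The remaining genes with the largest positive differences were receptors, secreted factors and transcripts of unknown function. *Met*, the hepatocyte growth factor receptor, which signals through ERK, had 8.91, 8.43 and 8.39 in the mutants and 7.49, 7.68 and 8.05 in the controls (0.83, standard error 0.17, adjusted p = 0.170). *Rxfp2*, a relaxin-family receptor, had 8.12, 8.73 and 8.78 in the mutants and 7.45, 7.43 and 8.03 in the controls (0.91, adjusted p = 0.184). *Mc4r*, a melanocortin receptor, had 8.14, 7.76 and 7.68 in the mutants and 6.62, 7.19 and 7.20 in the controls (0.86, adjusted p = 0.170). The groups did not overlap for any of the 3 receptors. *Vwc2l*, a secreted von Willebrand factor C domain protein, was 0.87 higher, the calcium-binding *Cpne8* 0.81, the Wnt inhibitor *Sfrp1* 0.77, *Ccbe1*, a matrix protein of lymphatic development, 0.75, and *Tmem232*, a membrane protein, 0.70. Of these *Tmem232* shared the lowest adjusted p of 0.0555, with 7.21, 7.04 and 7.26 in the mutants and 6.36, 6.52 and 6.54 in the controls. *Gm19744*, a long noncoding RNA gene, had 6.64, 6.47 and 6.23 in the mutants and 5.11, 5.51 and 5.08 in the controls, the largest positive difference of all genes (1.21, adjusted p = 0.0555). Its control values lay below the brightness limit of 5.674. *Ifnl3*, an interferon lambda gene, had 7.19, 7.20 and 7.26 in the mutants and 6.69, 6.59 and 6.71 in the controls (0.55, adjusted p = 0.0555), while *Ifit1*, an interferon target, had 6.78, 6.61 and 6.58 in the mutants and 7.13, 7.02 and 7.14 in the controls (-0.44, adjusted p = 0.121). Of 14 interferon and antigen presentation genes kept, *Ifit1* alone passed the unadjusted threshold.

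On the lower side, *Atp6ap1l*, an accessory subunit gene of the proton pump V-ATPase, had the lowest p of all genes. It had 6.90, 7.01 and 6.93 in the mutants, against 7.66, 7.74 and 7.61 in the controls. Both groups were tight, and the difference was -0.72 (standard error 0.07, adjusted p = 0.0555). *Gpr83*, a neuropeptide receptor, had 7.75, 7.80 and 7.60 in the mutants and 8.62, 8.55 and 8.34 in the controls (-0.78, adjusted p = 0.0555). *Abi3bp*, an extracellular matrix protein, had 6.90, 6.55 and 6.27 in the mutants and 7.78, 7.87 and 7.27 in the controls (-1.07, standard error 0.19, adjusted p = 0.121). *Plk5*, a polo-like kinase family member of brain, had 6.94, 6.88 and 6.60 in the mutants and 7.97, 7.86 and 7.07 in the controls, with control 5 close to the mutants (-0.83, adjusted p = 0.236). The peptide hormone *Apln* was 0.65 lower and the copine *Cpne9* 0.68 lower (adjusted p = 0.0786 and 0.0955). The most negative differences of all, *Gm765* (-1.47) and *Gdpd3* (-1.28), each rested on part of a group: *Gm765* had 5.54, 5.06 and 5.06 in the mutants and 7.11, 7.76 and 5.20 in the controls, and *Gdpd3*, a lysophospholipase, had 6.05, 7.94 and 5.98 in the mutants and 7.87, 7.51 and 8.44 in the controls. Both groups overlapped for these genes, which were named after their values were seen. The mutant mean of *Gm765*, 5.22, lay below the brightness limit of 5.674, so the gene was kept through its brighter controls.

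Channels and genes of the maturing cortex leaned lower. Of 60 potassium and HCN channel genes, 3 were higher and 19 lower (31.7%) at an unadjusted p below 0.05, with a median of -0.07. The silent Kv2 partners *Kcng4* and *Kcns1* differed by -0.67 and -0.45 (adjusted p = 0.0963 and 0.170), the Kv beta subunit *Kcnab3* by -0.54 (adjusted p = 0.170; the mean of its 2 probe sets gave -0.31) and the fast Kv3 channel *Kcnc1* by -0.31 (adjusted p = 0.186). *Kcng4* had 6.64, 6.51 and 6.78 in the mutants, all below 7.49, 7.25 and 7.22 in the controls. *Kcng3*, another silent subunit, went the other way with 7.85, 8.06 and 7.92 in the mutants and 7.64, 7.38 and 7.69 in the controls (0.37, adjusted p = 0.235). Of 22 genes that are high in mature cortex, none was higher and 12 were lower (54.5%), with a median of -0.20. Among the 12 were the myelin genes *Mog* and *Mobp* and the neurofilament *Nefh*, which other lists hold too. *Scn4b*, the beta4 sodium channel subunit, had 6.60, 7.02 and 6.62 in the mutants and 7.90, 7.66 and 7.00 in the controls (-0.77, adjusted p = 0.257), and *Syt2*, a fast synaptotagmin, 7.69, 7.95 and 7.96 in the mutants and 8.33, 8.22 and 8.13 in the controls (-0.36, adjusted p = 0.223). Control 5 lay inside the mutant range for *Scn4b* and above it for *Syt2*. *Nefm* and *Nefl*, the medium and light neurofilaments, differed by -0.58 and -0.29 (adjusted p = 0.186 and 0.286). *Pvalb*, the calcium-binding protein of fast-spiking interneurons, which *Neurod6-Cre* does not target, had 7.91, 8.04 and 8.05 in the mutants and 8.30, 8.15 and 8.41 in the controls (-0.29, adjusted p = 0.258). Among genes high in immature cortex 2 of 24 were higher and 1 lower, with *Marcksl1*, an actin-linked kinase substrate, at 0.34 (adjusted p = 0.319), and the growth cone protein *Gap43* differed by 0.30 (adjusted p = 0.288).

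Receptors differed gene by gene. Among serotonin, acetylcholine and monoamine receptors 4 of 32 were higher and 4 lower. The serotonin receptors *Htr1a* (0.43), *Htr1b* (0.47) and *Htr5b* (0.37) were higher beside *Htr2c*, and *Htr2a*, the cortical receptor for hallucinogens, was lower, with 10.38, 10.16 and 10.23 in the mutants against 10.92, 10.66 and 10.62 in the controls (-0.48, adjusted p = 0.170). The synaptic organizer *Cbln1*, which bridges neurexins and glutamate receptors, had 7.66, 7.65 and 7.39 in the mutants and 7.07, 6.82 and 6.99 in the controls (0.61, adjusted p = 0.121), and its relative *C1ql2* 7.90, 7.92 and 7.80 in the mutants and 7.46, 7.47 and 6.93 in the controls (0.59, adjusted p = 0.186). Neither gene showed overlap. Of the 12 channels and receptors that the study named and that were kept here, 3 were higher and none lower: the glycine receptor *Glra2* (0.42), the sodium channel subunit *Scn3b* (0.38) and *Kcng3*. The T-type calcium channel *Cacna1g* was 0.41 lower (adjusted p = 0.170). Protocadherins lay on both sides, *Pcdh8* at 0.49 and *Pcdh20* at -0.43 (adjusted p = 0.157 and 0.216), and the classical cadherin *Cdh8* was 0.31 higher (adjusted p = 0.170); of 32 genes of the 2 families 4 were higher and 4 lower.

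Genes that steer and extend axons leaned in different ways. Of 61 axon guidance genes 4 were higher and 9 lower, with a median of -0.01. The semaphorin *Sema7a*, which promotes axon growth, had 10.36, 10.66 and 10.58 in the mutants, all below 11.08, 10.87 and 10.86 in the controls (-0.41, adjusted p = 0.188). The Slit receptor *Robo1* was 0.25 higher and its relative *Robo3*, which lets commissural axons cross the midline, 0.52 lower (adjusted p = 0.237 and 0.264), and the plexins *Plxna2* and *Plxna4*, receptors for semaphorins, were 0.22 and 0.28 lower. Of 39 genes of axon growth and branching 4 were higher and 1 lower. *Gap43* had 10.01, 9.92 and 9.71 in the mutants and 9.53, 9.53 and 9.68 in the controls, so that mutant 6 and control 5 nearly met. *Dpysl5*, a collapsin response mediator of growing neurites, was 0.34 higher (adjusted p = 0.250). Among 33 growth factor and neurotrophin genes *Met* alone was higher and 3 were lower, the neurturin receptor *Gfra2* (-0.30) and the GDNF receptor *Gfra1* (-0.21) among them; *Bdnf*, which ERK and activity both induce, differed by 0.11 and its receptor *Ntrk2* by 0.00.

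Interneurons lie outside the recombined population, and their genes were mixed. Of 29 interneuron genes 4 were higher and 3 lower, with a median of 0.05. *Calb2*, which encodes calretinin, had 7.28, 6.96 and 6.95 in the mutants, all above 6.64, 6.53 and 6.70 in the controls (0.44, adjusted p = 0.185), and *Gad1*, which makes GABA, was 0.17 higher. *Sst* and *Vip*, the peptides that mark 2 large interneuron classes, each differed by 0.04. Of 33 neuropeptide and granin genes 5 were higher and 1 lower, with *Grp*, the gastrin-releasing peptide, at 8.94, 8.55 and 8.39 in the mutants and 8.23, 8.10 and 8.14 in the controls (0.47, adjusted p = 0.247). *Cort* (0.38) and *Pnoc* (0.31), the cortistatin and nociceptin precursors, were higher as well. *Cck*, the cholecystokinin precursor, differed by 0.16 and its groups overlapped.

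The remaining synaptic and channel lists held genes on both sides. Of 23 glutamate receptor genes 1 was higher and 4 lower, with the kainate receptor *Grik4* at -0.29 and the AMPA receptor *Gria4* at -0.20. Of 15 GABA-A and glycine receptor subunits 2 were higher and 2 lower, the extrasynaptic subunit *Gabrd* at -0.23 among the lower ones. Of 27 synaptic organizers 4 were higher and 3 lower, with the epilepsy-related *Lgi2* at 8.96, 9.15 and 9.18 in the mutants, all below 9.55, 9.49 and 9.32 in the controls (-0.36, adjusted p = 0.192). Of 24 postsynaptic scaffold and CaM kinase genes 1 was higher and 4 lower. *Camk2d*, the delta form of CaM kinase II, had 9.32, 8.98 and 8.94 in the mutants, against 8.64, 8.67 and 8.69 in the controls (0.41, adjusted p = 0.204). Of 8 sodium channel genes 1 was higher and 2 lower, with *Scn1a*, the sodium channel of fast-spiking cells, at -0.33, and of 22 calcium channel genes 1 was higher and 3 lower, with the auxiliary subunit *Cacna2d2* at -0.34.

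Of 33 extracellular matrix genes 5 were higher and 3 lower. *Col23a1*, a transmembrane collagen, had 7.76, 7.38 and 7.34 in the mutants, all above 6.87, 7.00 and 7.00 in the controls (0.53, adjusted p = 0.170). *Acan*, which encodes aggrecan of perineuronal nets, was 0.30 lower (adjusted p = 0.276). Genes of cell death were near control levels, with 2 of 23 higher and 1 lower: the BH3-only genes *Hrk* (0.32) and *Bcl2l11* (0.20) were on the higher side and the cell cycle inhibitor *Cdkn1a* (-0.33) on the lower side, with adjusted p-values of 0.271, 0.408 and 0.352. Reactive astrocyte genes were higher in 2 of 17, with the intermediate filament *Vim* at 0.25, while *Gfap*, the classic marker, differed by 0.12 with overlapping groups. Of 17 clock genes 3 were higher and 1, *Rorb*, lower, with the repressor *Bhlhe40* at 0.25 (adjusted p = 0.210), and of 18 glucocorticoid-responsive genes 1 was higher and 1 lower. Genes of striatum (2 of 15 higher and 2 lower), thalamus (1 of 14 higher and 3 lower), hippocampus (2 of 14 higher and 3 lower) and choroid plexus (2 of 8 higher) had medians from -0.02 to 0.13, and neither of the 2 blood cell genes kept passed. Of 16 Ras activators, adaptors and inhibitors the exchange factor *Rasgrf1* was 0.20 higher and *Sos1*, another exchange factor, 0.21 lower.

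Myelin and lipid genes were lower on average, with the mice spread within the groups. Oligodendrocytes, which make myelin, lie outside the population in which *Neurod6-Cre* recombines. Of 32 oligodendrocyte and myelin genes none was higher and 14 were lower (43.8%), with a median of -0.30. The myelin protein *Mag* had 9.25, 9.59 and 9.43 in the mutants, below 10.12, 10.15 and 9.73 in the controls (-0.58, adjusted p = 0.179), *Mog*, of the outer myelin sheath, had 9.20, 9.40 and 9.16 in the mutants and 9.98, 9.91 and 9.49 in the controls (-0.54, adjusted p = 0.188), and *Ugt8a*, which makes galactosylceramide, 9.15, 9.59 and 9.48 in the mutants and 10.02, 10.09 and 9.76 in the controls (-0.55, adjusted p = 0.186). *Mbp*, the myelin basic protein gene, differed by -0.06 (adjusted p = 0.836). As a mean over the list, relative to the controls' mean, the mutants stood at -0.32, -0.09 and -0.38 and the controls at 0.10, 0.12 and -0.22. Mutant 3 lay above control 5, so the list did not separate the groups. Oligodendrocyte precursor genes passed the unadjusted threshold in 0 of 12, at an unadjusted p below 0.05, with a median of -0.04. Sterol synthesis genes were lower in 8 of 20 (40%) and higher in 1, the regulator *Srebf1*. *Hmgcs1*, at the entry to the pathway, had 10.39, 10.26 and 10.24 in the mutants, all below 10.66, 10.54 and 10.73 in the controls (-0.34, adjusted p = 0.175). Fatty acid synthesis genes were lower in 6 of 13 (46.2%), among them the desaturase *Scd1* (-0.43, adjusted p = 0.184).

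Microglial and vascular genes stood close to control levels. Of 26 microglia and macrophage genes 1 was lower, and of 27 endothelial and pericyte genes none passed the unadjusted threshold, with medians of 0.01 and 0.02. Of 24 astrocyte genes 1 was higher and 4 lower, with the water channel *Aqp4* at -0.30 and the developmental factor *Sox9* at 0.24 (adjusted p = 0.321 and 0.346). The inwardly rectifying potassium channel *Kcnj10* of glia had 10.59, 10.06 and 10.25 in the mutants, below 10.69, 10.67 and 10.77 in the controls (-0.41, adjusted p = 0.284). Meningeal and fibroblast genes were 0.20 higher in the median, with 3 of 18 higher and 1 lower, but varied most among mice: the list mean stood at 0.35, 0.03 and 0.15 in the mutants and at -0.34, 0.00 and 0.33 in the controls. *Fbln1*, a matrix protein of that list, was 0.40 higher (adjusted p = 0.170), and *Mgp* 0.34 higher. How far differences in the meninges, white matter or layers taken at dissection enter the values above was not tested.

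**Figure D4:**
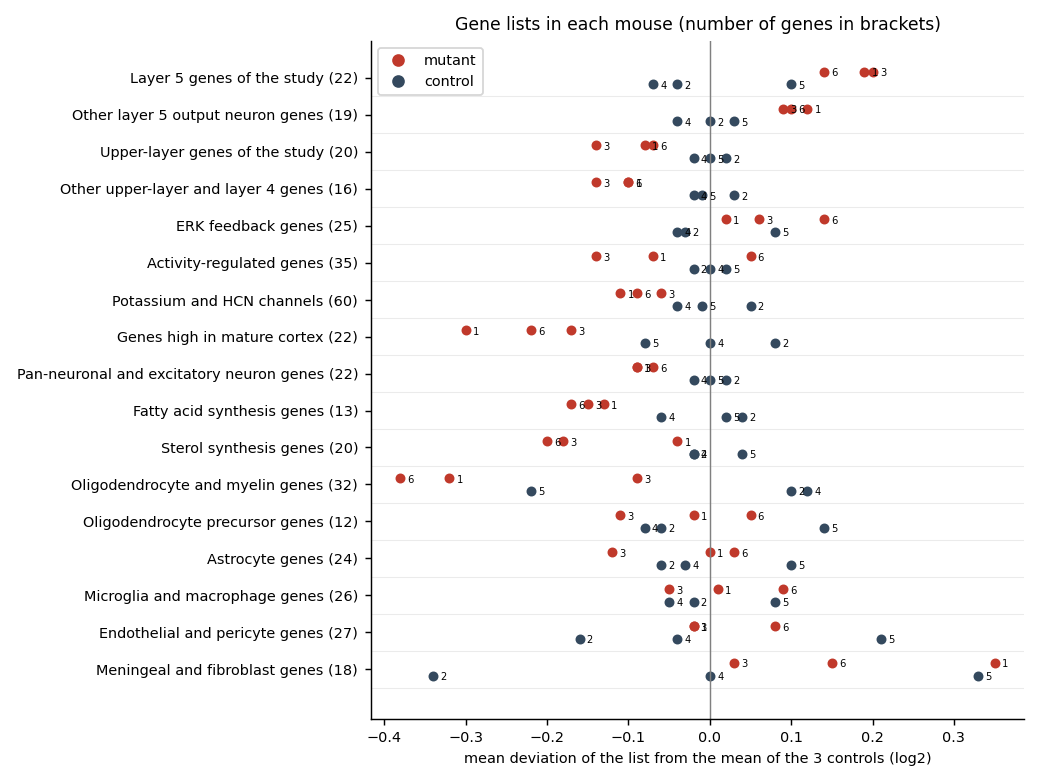
Each point is 1 mouse and gives the mean deviation of a gene list from the mean of the 3 controls (x axis, log2), with mutants above controls in each row, the number of genes in brackets and the mouse number beside the point. The 3 mutants lie above all controls for both layer 5 lists and below all controls for both upper-layer lists, potassium channels, genes high in mature cortex, pan-neuronal genes, sterol synthesis and fatty acid synthesis. The groups overlap for the other 8 lists shown, those of myelin, activity-regulated, glial, vascular and meningeal genes among them. The lists shown were picked from 50, and how many of all 50 separate the groups was not counted. Among single genes, 16.6% did. Some gaps were small: the highest mutant and lowest control stood at -0.06 and -0.04 for potassium channels and at -0.04 and -0.02 for sterol synthesis.

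Of the 71 genes past the study's thresholds, 12 were microRNA loci or chemosensory receptors, all on the lower side. MicroRNA loci made up 1.42% of the genes kept and 6 of them (2.73%) passed, and 6 of 143 olfactory and vomeronasal receptor genes passed (4.2%), against 0.359% of other protein-coding genes (22 higher and 28 lower of 13915). With p below 0.05 before adjustment and no limit on the fold, both classes went both ways, with 17 higher and 24 lower of 220 microRNA loci (median 0.02) and 12 higher and 16 lower of 143 receptors (median -0.02). The median standard error was 0.11 in both classes, against 0.08 for other protein-coding genes. *Mir196a-1* had 7.50, 7.06 and 7.11 in the mutants, against 8.23, 8.23 and 8.50 in the controls (-1.10, standard error 0.13, adjusted p = 0.0555). *Mir489* had 6.48, 5.78 and 6.19 in the mutants and 7.34, 6.86 and 7.40 in the controls (-1.05, adjusted p = 0.141), *Mirlet7b* 6.15, 5.25 and 5.21 in the mutants and 6.58, 6.37 and 6.45 in the controls (-0.93, adjusted p = 0.192), and *Mir122* 6.89, 6.18 and 5.73 in the mutants and 7.28, 7.44 and 7.62 in the controls (-1.18, adjusted p = 0.170). Mutant 1 was the highest of the mutants for these 4 loci, as it was for *Vmn2r89* (6.16, 5.74 and 5.65 in the mutants, 7.03, 6.71 and 6.75 in the controls) and for *Vmn1r184* (6.77, 5.37 and 6.30 in the mutants, 7.24, 7.18 and 7.38 in the controls), both vomeronasal receptor genes. Such receptors are known from sensory neurons of the nose. The mutant means of *Mirlet7b* (5.54) and of the olfactory receptor gene *Olfr887* (5.63) lay below the brightness limit of 5.674. Both were kept through their brighter controls. A gene array probe set on a microRNA locus reads RNA from the locus and does not separate the mature microRNA from its precursor.

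The mature sequences of *Mir196a-1*, *Mirlet7b*, *Mir489* and *Mir23a*, 4 of the 6 loci past the thresholds, are given to show whether these loci share a seed, with the seed (bases 2 to 8) in capitals (RefSeq, GRCm38.p6).
miR-196a-5p: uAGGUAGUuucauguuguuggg
let-7b-5p: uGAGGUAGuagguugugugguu
miR-489-3p: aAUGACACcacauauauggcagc
miR-23a-3p: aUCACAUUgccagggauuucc
*Mir196a-1* lies at chr11:96265187-96265208 (plus strand), *Mirlet7b* at chr15:85707325-85707346 (plus), *Mir489* at chr6:3721922-3721944 (minus) and *Mir23a* at chr8:84208563-84208583 (plus), the positions of the sequences shown. The seeds of miR-196a-5p and let-7b-5p share the run AGGUAG of 6 bases, offset by 1 position, and the other seeds share no run of more than 3 bases with them or with each other. *Mir23a* was 0.73 lower (adjusted p = 0.121). The median of 40 *Rpl* genes, which encode ribosomal proteins, was 0.12 with 6 higher and 0 lower at an unadjusted p below 0.05, and 7 of 37 genes with symbols starting in *Col*, most of them collagens, were higher and 0 lower.

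The loss-of-function arrays give the opposite manipulation in other mice. The P14 and P21 values were made on different array types and normalized apart, the ages differ, and no mouse is shared, so values are set side by side with no test of the difference. At P14, 217 of 19938 genes (1.09%) passed an adjusted p of 0.05, 78 higher (0.391%) and 139 lower (0.697%), and 209 of these were kept at P21. Of the 209, 152 (72.7%) had the opposite sign at P21, against 49.6% of all 14141 genes on both arrays. Of the 72 higher at P14, 58 (80.6%) were opposite, and of the 137 lower at P14, 94 (68.6%). At an unadjusted p under 0.05 at P21, 52 of the 209 had the opposite sign and 11 the same. At that threshold 806 of all 14141 genes had the opposite sign and 706 the same. *Abi3bp* was 1.07 lower at P21 and rose by 1.78 at P14 (adjusted p = 0.00186), *Atp6ap1l* was 0.72 lower at P21 and rose by 1.61 at P14 (adjusted p = 0.00357), and *Rorb* was 0.58 lower at P21 and rose by 0.85 at P14 (adjusted p = 0.00722). *Kcns1* was 0.45 lower at P21 and rose by 1.15 at P14, and *Scn4b* was 0.77 lower at P21 and rose by 1.26 at P14. In the other direction *Cbln1* was 0.61 higher at P21 and fell by 1.20 at P14 (adjusted p = 0.00924), *Crym* was 0.45 higher at P21 and fell by 1.19 at P14, the cation channel *Trpc5* was 0.46 higher at P21 and fell by 1.68 at P14, and the deacetylase *Hdac9* was 0.36 higher at P21 and fell by 1.16 at P14. Of the 11 with the same sign, 5 were activity-regulated: *Arc*, *Egr2*, *Ptgs2*, *Homer1* and *Egr1*, which were lower at P21 by the values given above, fell at P14 by 1.97, 1.23, 1.05, 0.97 and 0.71 in that order. *Scube1* and *Neurod6* also had negative values at both ages. The list medians were 0.15 at P21 and -0.42 at P14 for the study's layer 5 genes, and 0.00 at P21 and -0.52 at P14 for activity-regulated genes.

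**Figure D5:**
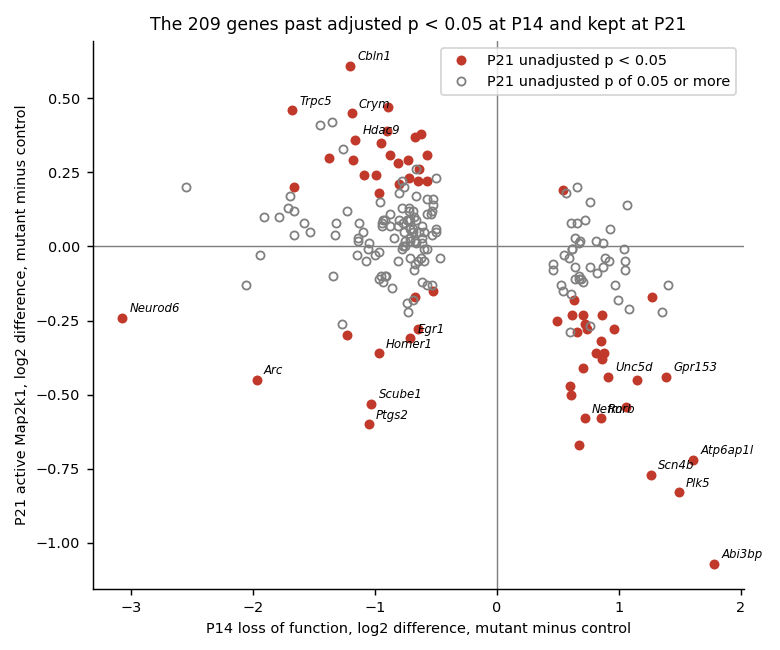
For the 209 genes past an adjusted p of 0.05 at P14 and kept at P21, the active *Map2k1* log2 difference at P21 (y axis) is set beside the loss-of-function difference at P14 (x axis), both mutant minus control, with filled points at an unadjusted p below 0.05 at P21. Most filled points lie in the upper left and lower right, and *Arc*, *Egr1*, *Homer1*, *Ptgs2*, *Scube1* and *Neurod6* lie in the lower left.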

How the data were processed

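RNA was taken from cortex, given as sensory cortex in the labels and as dorsal cortex in the methods, and hybridised to Affymetrix gene arrays, 1 per mouse. The log2 values were deposited by the authors after robust multi-array averaging (RMA: background correction, quantile normalization and median polish of probes); the submitters' processing notes name Partek 6, and the annotation version is not given in the sources used here. RMA sets all arrays of a table to 1 distribution, so a shift shared by most genes would be removed. Arrays have no read depth, so precision is set by how many were run. The P21 table and the loss-of-function table were normalized apart, and tests were run only within each. The labels and methods name different RNA kits.

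Of 41345 probe sets, 23521 had 1 symbol, 1820 several and 16004 none; 23328 matched the RefSeq gene table by Entrez ID, which changed no symbol. The brightest probe set was kept for each of 22180 genes (1082 have several), and genes above the 30th percentile of mean log2 intensity (5.674) were tested. Mutants and controls were compared with limma 3.58.1 in R 4.3.3 (lmFit and eBayes, two-sided, 3 mice a group, no covariates) with Benjamini-Hochberg adjustment over all genes tested. Intervals are 95% intervals of the moderated difference. The methods of the study state a mixed-model analysis of variance in Partek with thresholds on unadjusted p and 1.5-fold. The code was tested on simulated data. The methods speak of independent litters for the experiments in general, but the litter of each P21 mouse is not given, so p-values measure the spread between these mice.

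Named genes were *Map2k1*, *Map2k2* and *Neurod6*, the 12 largest differences in each direction (called genes first, then those past the study's thresholds whose groups do not overlap), genes named by the study, and up to 4 members of each of 50 lists by smallest p; other genes were named after their values were seen. The members and lists were chosen with earlier results of these data known. Promoters (250 bases before the most upstream start of each gene) and microRNAs came from RefSeq tables of GRCm38.p6. Alternatives were quantile normalization, centring, no brightness filter, a filter at the 50th percentile, the mean of probe sets, trended and robust moderation, no moderation, and leaving out each mouse.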

Additional observations from a re-analysis of the deposited data

Results flagged for a closer look

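Among genes past the study's thresholds whose P21 groups do not overlap, the 12 largest differences in each direction were looked at. Their separation at P21 was thus set by the choice. In 10 of these 24 genes, every loss-of-function mutant at P14 lay beyond all its controls in the opposite direction. *Gm19744*, *Vmn1r184*, *Vmn2r89*, *Mirlet7b* and *Gm17695* are among the 24 but had no P14 value, so they could not show this pattern. The share of all genes with such a pattern was not counted. Over all 241 genes named by the rule, 71 did not overlap at either age, 53 with opposite and 18 with the same signs, and *Rorb*, *Atp6ap1l*, *Cbln1* and *Kcns1* were among the 53. Many of the 241 were picked by their P21 values, and others because the study named them. Such a choice favours separated groups, so the 53 and 18 do not describe genes at large. Of all 14141 genes on both arrays, 49.6% had opposite signs, with or without overlap. The difference between the experiments was not tested, since they used other mice, ages and array types. Of the genes higher with active *Map2k1*, *Tshz2* differed by 1.05 at P21 and by -0.83 at P14, *Rxfp2* by 0.91 and -0.73, *Vwc2l* by 0.87 and -0.75, and *Mc4r* by 0.86 and -0.49. Likewise *Htr2c* differed by 0.84 at P21 and by -0.71 at P14, *Met* by 0.83 and -0.94, *Tmtc4* by 0.71 and -0.37, and *Tmem232* by 0.70 and -0.53. None of these 8 P14 values passed an adjusted p of 0.05 in limma. Of the genes lower with active *Map2k1*, *Abi3bp* differed by -1.07 at P21 and by 1.78 at P14, and *Plk5* by -0.83 at P21 and by 1.49 at P14, and both P14 values passed (adjusted p = 0.00186 and 0.0168).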

How the results depend on the processing

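With 3 mice a group and adjusted p-values just above 0.05, the number of genes called at P21 depended on the settings. It was 0 as reported, 13 with a filter at the 50th percentile of brightness (7 higher and 6 lower) and 17 with trended and robust moderation (9 higher and 8 lower), which included all 13. Those 13 were *Tshz2*, *Htr2c*, *Tmtc4*, *Tmem232*, *Itga8*, *Ifnl3*, *Gm2694*, *Rorb*, *Gpr83*, *Apln*, *Igfbp6*, *Atp6ap1l* and *Mir196a-1*. Leaving out each mouse gave 0 to 11 called genes, 0 to 3 higher and 0 to 11 lower. The 11 came without mutant 1, all lower, with 4 microRNA loci (*Mir122*, *Mir196a-1*, *Mirlet7b* and *Mir23a*) and *Atp6ap1l* among them, and 7 were called without control 5. The other alternatives called 0 genes in limma. The counts past the study's thresholds were 134 with no brightness filter, 100 of them lower, and 27 lower with the 50th percentile filter, where fewer genes were tested, and leaving out each mouse gave 20 to 42 higher genes, the 42 without mutant 6. The share of P14-called genes with the opposite sign at P21 ran from 65.6% (without mutant 6) to 75.6%. *Col5a1* changed sign, at -0.01 for the mean of its probe sets against 0.26 as reported, and so did *Diaph3*, at -0.01 after quantile normalization against 0.01.

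Of the 241 genes named by the rule, 13 with small differences changed sign when a mouse was left out: *Fos* (-0.10 to 0.10), *Etv5* (-0.08 to 0.07), *Tle4* (-0.07 to 0.17), *Hspb3* (-0.29 to 0.02), *Cav1* (-0.19 to 0.01), *Cntn6* (-0.04 to 0.24), *Diaph3* (-0.09 to 0.15), *Flrt3* (-0.03 to 0.15), *Mapkapk2* (-0.09 to 0.01), *Pou3f2* (-0.11 to 0.06), *Scn2a* and *Sox5* (each -0.01 to 0.03) and *Wnt7b* (-0.01 to 0.11). The other named genes kept their sign in all alternatives, apart from values that rounded to 0. List medians moved by more than their spread among mice in few cases: the list of several layers to 0.21 with the mean of probe sets, hippocampal genes to 0.04 with no filter, and, with the 50th percentile filter, the further layer 5 genes to 0.18 and serotonin, acetylcholine and monoamine receptors to -0.02. Leaving out each mouse moved medians over -0.03 to 0.06 (clock), 0.02 to 0.08 (ERK cascade), 0 to 0.06 (GABA-A and glycine receptors), -0.04 to 0.02 (glutamate receptors), -0.04 to 0.04 (hippocampus), 0.11 to 0.15 (further layer 5), -0.07 to -0.03 (pan-neuronal), -0.08 to -0.01 (Ras), -0.03 to -0.02 (serotonin and others), -0.07 to 0 (striatum) and -0.03 to 0.01 (synaptic organizers). Over all alternatives the medians of the study's layer 5 genes (0.10 to 0.23), its upper-layer genes (-0.15 to -0.10), potassium channels (-0.11 to -0.05), mature cortex genes (-0.23 to -0.15) and myelin genes (-0.39 to -0.22) kept their sign. The causes of these shifts were not tested. No paired analysis was possible because the litter of each P21 mouse is not given, and mouse numbers name single animals. A sex covariate could not be fitted, since all 6 mice were male. The blood list had no member left under the 50th percentile filter.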
